A study of Mus musculus with 85 samples.

Results

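MiRNA counts were examined in 53 heart libraries, out of 85 in the whole series, each made from 1 female mouse of the HMDP, the Hybrid Mouse Diversity Panel of inbred strains. The 53 carry the library numbers 22 to 48 (27 libraries, run S22-48) and 60 to 85 (26 libraries, run S60-85), where a run is a stretch of consecutive library numbers and the labels give no date or batch for it. They were selected on their overall count profile, which was alike in both runs and differed in the other 32 libraries, and those 32 were used only as a reference. Because likeness of the profile chose the libraries, the spread described here is the spread among hearts that already resembled each other. All mice were 16 weeks old and had eaten chow for 8 weeks and then a diet high in fat and sucrose (HF/HS) for 8 weeks. No group lacks the diet, no other genotype or treatment was compared, and the labels used here do not name the strain of each animal. With 1 library per heart, strain, animal, dissection and library preparation cannot be told apart as sources of a difference between hearts. The p-values below measure the spread between these libraries.

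MiRNAs are short RNAs cut from hairpin precursors. Each guides a silencing complex to messenger RNAs that pair with its seed, bases 2 to 8 of the mature strand, and miRNAs with one seed therefore share many targets. In the heart, muscle-restricted miRNAs such as miR-1 and miR-133 come from cardiomyocytes, miR-126 from endothelial cells, miR-143 and miR-145 from smooth muscle, and miR-142 and miR-451 from cells of the blood lineages. In whole hearts, fewer cells of a type and less RNA per cell cannot be told apart.

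The mature sequences of the miRNAs whose variation is described below are shown 5′ to 3′ with the seed in capitals. RefSeq annotation of GRCm38.p6 held a sequence for 52 of the 65 miRNAs kept, which carried 34 different seeds. The rows without an entry were miR-1b-5p, miR-1a-3p, miR-143-3p, miR-133a-3p, miR-30d-5p, miR-126a-5p, miR-378a-3p, miR-30b-5p, miR-145a-5p, miR-23b-3p, miR-486a-5p, miR-486b-5p and miR-133a-5p. The first set is the 8 miRNAs that varied most between hearts, with miR-125a-5p, which had a negative r with miR-208a-3p and miR-499-5p.
miR-451a: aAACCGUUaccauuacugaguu
miR-142a-3p: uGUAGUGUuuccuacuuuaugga
miR-142a-5p: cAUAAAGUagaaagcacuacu
miR-208a-3p: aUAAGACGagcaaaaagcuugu
miR-499-5p: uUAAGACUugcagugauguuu
miR-25-3p: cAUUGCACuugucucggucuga
miR-148a-3p: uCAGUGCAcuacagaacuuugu
miR-22-3p: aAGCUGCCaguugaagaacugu
miR-125a-5p: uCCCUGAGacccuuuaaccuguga

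The second set is the miR-26 pair, which had a low excess CV, and the 2 miRNAs that share their seed with miR-148a-3p but not its variation.
miR-26a-5p: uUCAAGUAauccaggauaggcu
miR-26b-5p: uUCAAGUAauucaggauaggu
miR-148b-3p: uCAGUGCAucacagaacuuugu
miR-152-3p: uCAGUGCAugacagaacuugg

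The genes lie in different settings on GRCm38. MiR-208a-3p is at chr14:54949072-54949093, in an intron of Myh6, the gene of the alpha cardiac myosin heavy chain. MiR-499-5p is at chr2:155622893-155622913, in an intron of the related myosin gene Myh7b. MiR-142a-3p (chr11:87756903-87756925) and miR-142a-5p (chr11:87756867-87756887) are the arms of 1 hairpin, in an intron of the noncoding gene Mir142hg. MiR-451a is at chr11:78073186-78073207 and overlaps no other annotated gene outside the miRNA class. MiR-25-3p (chr5:138165332-138165353) lies on the minus strand in Mcm7, and miR-125a-5p (chr17:17830817-17830840) overlaps an exon of Spaca6. MiR-26a-5p has copies at 2 loci, 1 of them in an intron of Ctdspl, and miR-26b-5p lies in an intron of the phosphatase gene Ctdsp1.

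The libraries were shallow. Library totals ran from 5464 to 30202 counts around a median of 13812, and this median was 11173 in run S22-48 and 17665 in run S60-85. A count of 0 therefore allows a share of up to 0.00993% to 0.0549%, depending on the library, where the floor is 3 counts. Of 1977 listed miRNAs, 487 had a count in these hearts, and 65 had the mean of 10 or more counts that the selection of rows asks for. These 65 held 97.49% of the counts. The rows miR-486a-5p and miR-486b-5p hold identical counts and were used once, which leaves 64. Just inside the limit were miR-133a-5p (mean count 10.2), miR-223-3p (10.6) and miR-199a-5p (11.2), and just outside it miR-335-5p (9.98), miR-191-5p (9.75) and miR-195a-5p (9.28). Between 2 libraries, chi-square per degree of freedom was 1.39 at its lowest and 4.79 in the median of the 1378 pairs. No pair lay under 1, about the value that counting noise alone gives, but single pairs were not tested. Whether the kit's molecular identifiers were used is not stated, so these floors cover counting error only, and counting error itself leaves out any duplicate reads.

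The heart ranking was led by 2 miR-1 rows. MiR-1b-5p held 24.8% of all counts and 20.3%, 24.4% and 33.6% as the lowest, median and highest share per library. MiR-1a-3p, the main cardiac and skeletal muscle miRNA, held 19.4%, with 15.002%, 19.1% and 24.7%. These rows were the first 2 in all 53 libraries, and miR-1b-5p was ahead in 52 of them. Their genes are annotated on opposite strands of one locus, and the strand setting of the counting is not stated, so how the reads divide between the rows is uncertain. The ratio of miR-1b-5p to miR-1a-3p ranged from 0.942 to 1.58 with a median of 1.30.

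Behind miR-1 came a long slope of miRNAs from several cell types. MiR-126a-3p, an endothelial miRNA that supports vessel integrity, held 5.89% of the counts, from 4.76% to 6.86% per library, and was at rank 3 in 51 libraries. MiR-30e-5p, of a family abundant in cardiomyocytes, held 4.39% (3.04% to 5.48%). MiR-143-3p, a smooth muscle miRNA, held 3.83% (2.35% to 5.35%). Let-7f-5p, of the let-7 family known for restraining growth genes, held 3.10% (2.41% to 4.10%). MiR-133a-3p, the muscle miRNA made with miR-1a, held 2.82% (1.54% to 3.75%). MiR-126b-3p, annotated opposite miR-126a, held 2.26%, miR-16-5p 2.10% and miR-29a-3p, a regulator of collagen messages, 1.95%.

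The order was steep and similar in all hearts, but not fixed. The 2 leading rows held 44.2% of the counts, the first 10 held 70.5% and the first 20 held 83.7%. In 9 libraries the 10 leading rows were exactly the pooled 10, and the fewest shared was 7. The rank correlation between 2 libraries was 0.883, 0.955 and 0.986 at its lowest, median and highest, as a description over miRNAs. Among the 25 miRNAs with the most counts, miR-208a-3p moved most in rank, from 8 to 34, and miR-142a-3p next, from 6 to 27, while miR-126a-3p stayed at 3 or 4. Sparse rows moved further, such as miR-25-3p, from 44 to 110.

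**Figure D1:**
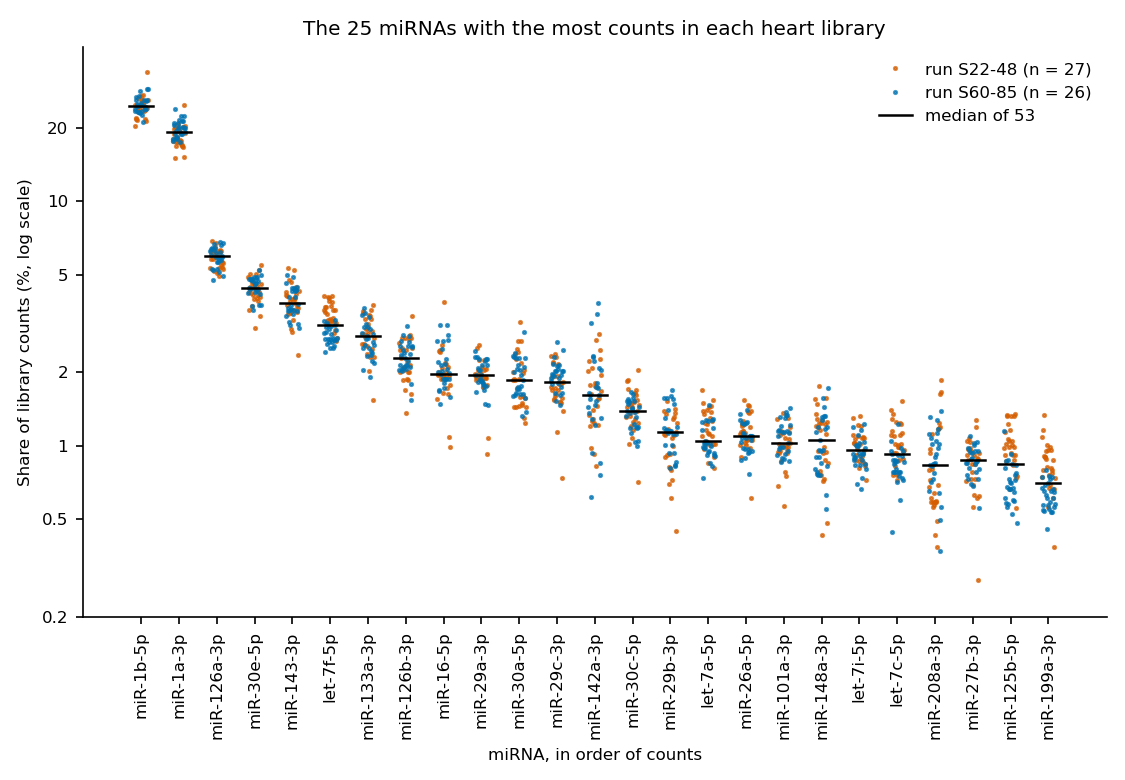
Share of the library's counts (percent, log scale) for the 25 miRNAs with the most counts, in order of counts, with 1 point per library coloured by run and a bar at the median of 53. The miR-1 rows sit near 24.4% and 19.1%, miR-126a-3p follows at 5.94%, and the points of miR-142a-3p (0.616% to 3.82%) and miR-208a-3p (0.372% to 1.86%) spread more than those of their neighbours.

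Several seeds were carried by more than 1 abundant miRNA. The let-7 seed (GAGGUAG), with 7 matched members, held 7.03% of the counts, from 5.18% to 9.57% per library. The miR-30 seed (GUAAACA), counted over the 3 members with an entry, held 7.69% (5.35% to 9.76%). The miR-29 seed (AGCACCA) held 4.90% (2.11% to 6.10%), and the miR-16 seed (AGCAGCA), with miR-15a-5p and miR-322-5p, held 2.28% (1.17% to 4.07%).

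The marker lists gave the profile of a whole heart. The cardiomyocyte list summed to 18.6%, 23.6% and 29.3% of the counts at its lowest, median and highest, and 5 of its 6 members were kept. It holds miR-1a-3p but not the opposite-strand row miR-1b-5p, which alone held 24.8% of all counts. MiR-208b-3p, the partner of slow myosin, had a mean of 1.28 counts and none in 22 libraries. The endothelial list summed to 5.27%, 6.57% and 7.54%, and the smooth muscle list to 2.47%, 4.06% and 5.55%. The fibroblast list summed to 0.436%, 0.775% and 1.42%, and its member miR-214-3p was at 0 in 52 libraries. The leukocyte list summed to 0.798%, 1.96% and 4.29% with 4 of 6 members kept, and the erythroid list to 0.136%, 0.354% and 1.12% with 2 of 3 kept. The liver list reached 0.286% at most and the neuron list 0.0495%, with no member of either kept and miR-124-3p at 0 in all 53 libraries.

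The variation of each miRNA between hearts was then set against counting noise. The counts were scaled by TMM in edgeR, and each miRNA was tested by a chi-square test of its counts against a constant share, with Benjamini-Hochberg adjustment. The size is the excess CV, the relative spread between hearts that is left after counting noise is taken away, with a 95% interval for counting error and the finite number of hearts. Of 64 miRNAs, 52 (81.2%) varied beyond counting noise. The excess CV had a median of 16.8% and quartiles of 12.5% and 21.3%, and 6 miRNAs exceeded 30%. As a description over miRNAs, it had a rho of -0.034 with the mean count (64 miRNAs) and of -0.135 with GC content (52 miRNAs).

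MiR-451a, an erythroid miRNA whose maturation bypasses Dicer, varied most. Its level was 944, 2482 and 9007 CPM (counts scaled to library totals adjusted by TMM) at its lowest, median and highest. In 7 hearts it lay above 2 times the median. The excess CV was 57.2% (47.3% to 71.5%), and 51.97% and 60.4% within runs S22-48 and S60-85. Its highest levels were in library 66, at 9007 CPM, library 79, at 7745 CPM, and library 36, at 6743 CPM, and leaving out any 1 library gave at least 52.8%. MiR-486a-5p, another erythroid miRNA, ranged over 357, 957 and 2208 CPM with an excess CV of 28.4% (18.96% to 40.3%). Without library 36 that value was 20.4%.

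The arms of miR-142a, a miRNA of blood cells, were also among the most variable. MiR-142a-3p ranged over 6981, 16164 and 41909 CPM, with an excess CV of 41.3% (34.5% to 51.3%). MiR-142a-5p ranged over 539, 1094 and 3178 CPM, with 38.7% (29.4% to 51.5%), from a median count of only 13. Within runs S22-48 and S60-85 the latter had 21.1% and 52.3%. Library 79 was highest and library 65 lowest for both arms. Other leukocyte miRNAs varied less: the excess CV was 24.9% for miR-146a-5p, a brake on inflammatory signalling, and miR-223-3p, a myeloid miRNA, did not differ from counting noise (14.9%, interval 0% to 28.7%; adjusted p = 0.119, chi-square test).

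The 2 miRNAs of the myosin introns varied more than the rest of the cardiomyocyte list. MiR-208a-3p ranged over 3958, 8432 and 23237 CPM, with an excess CV of 40.8% (33.8% to 50.9%). Its spread was 53.9% within run S22-48 and 28.9% within run S60-85, and the 3 highest hearts, libraries 46, 48 and 47, are neighbours by number in run S22-48. MiR-499-5p ranged over 2381, 5415 and 10662 CPM, with 33.8% (27.6% to 42.6%). The other members lay lower, at 18.95% for miR-1a-3p (15.9% to 23.5%) and 13.7% for miR-133a-3p (11.2% to 17.4%), while miR-133b-3p did not differ from counting noise (8.09%, interval 0% to 20.7%). With library totals miR-1a-3p had 9.76% and miR-133a-3p 16.6%. Under TMM, the intervals of miR-208a-3p and miR-499-5p do not overlap those of miR-1a-3p and miR-133a-3p.

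Of the other 3 most variable miRNAs, 1 rested largely on a single heart. MiR-25-3p, of the cluster known for cell-cycle control, ranged over 312, 980 and 1744 CPM, with an excess CV of 30.3% (19.5% to 43.6%). MiR-148a-3p, known for roles in lipid metabolism, ranged over 4281, 10145 and 19577 CPM, with 29.8% (24.6% to 37.5%), and 28.3% and 31.2% within the runs. MiR-22-3p, a muscle miRNA tied to hypertrophy, ranged over 857, 1890 and 5220 CPM, with 29.6% (22.4% to 39.5%). Its highest value was in library 46, and without that library the excess CV was 18.03%. It was 39.7% within run S22-48 and 9.64% within run S60-85. Likewise miR-93-5p, with 21.8% over all hearts, had 6.05% without library 36.

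In some seed families the members did not vary alike. MiR-148a-3p had 29.8%, whereas miR-152-3p had 12.2% (4.29% to 19.8%) and miR-148b-3p, at 877 CPM in the median, had 7.35% (0% to 22.6%), which did not pass the test. In the let-7 family the members ranged from 7.44% (0% to 14.5%) for let-7b-5p to 18.9% (8.84% to 29.5%) for let-7d-5p. These intervals overlap, and with run as a covariate the values were 6.82% and 7.54%. The let-7 family sum had 9.89% (8.10% to 12.5%). The miR-30 sum had 11.7%, with members from 11.5% for miR-30c-5p to 22.6% for miR-30a-5p. The miR-29 sum had 13.6%, with 12.8% for miR-29a-3p, 20.1% for miR-29c-3p and 21.4% for miR-29b-3p. The miR-16 sum had 21.5%.

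The lowest values under TMM belonged to abundant and sparse miRNAs, and their order depended on the scaling. MiR-26b-5p ranged over 5251, 7087 and 8549 CPM, and its excess CV of 5.25% had an interval of 0% to 9.67%, the tightest upper bound of the 64. MiR-26a-5p ranged over 8506, 11152 and 14536 CPM, with 8.76% (5.90% to 12.4%), which was beyond counting noise. The sum of the pair, a family known for restraining growth, had 7.02% (4.77% to 9.87%). Let-7b-5p had 7.44% (0% to 14.5%) and miR-27a-3p 8.46% (0% to 16.4%). For miR-148b-3p, miR-133b-3p, miR-133a-5p (8.39%) and miR-3074-5p (9.16%), median counts of 9 to 17 per library left upper bounds between 20.7% and 25.5%, so spreads up to these bounds lie within the intervals. With library totals the excess CV was 9.22% for miR-26b-5p, 14.1% for miR-26a-5p, 15.6% for both let-7b-5p and miR-27a-3p, 17.1% for miR-148b-3p, 14.8% for miR-133a-5p and 20.3% for miR-3074-5p. The lowest of the 64 were then miR-126b-5p (8.28%), miR-126a-3p (8.37%) and miR-1b-5p (8.98%, against 18.7% with TMM).

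By list, the number beyond counting noise can be read against the 81.2% of all miRNAs. Of the 46 with a mean of 20 or more counts, 43 passed, which is the nearer background for abundant members. The number was 4 of 5 cardiomyocyte, 2 of 2 endothelial, 2 of 2 smooth muscle, 1 of 2 fibroblast, 3 of 4 leukocyte and 2 of 2 erythroid miRNAs. Of the smooth muscle miRNAs, miR-145a-5p had 14.1% (adjusted p = 0.0139, chi-square test), with 0% within run S22-48 and 22.2% within run S60-85. The median excess CV, 16.8% over all 64, was 18.95% for the cardiomyocyte, 13.6% for the endothelial, 14.4% for the smooth muscle, 17.2% for the fibroblast, 31.8% for the leukocyte and 42.8% for the erythroid list. All 9 measured miRNAs of the stress and fibrosis list, with mean counts of 28.4 or more, varied beyond counting noise, with a median of 15.7%. They include miR-21a-5p, which rises in stressed hearts, at 15.7% (11.7% to 21.1%), and miR-27b-3p, at 14.9% (11.5% to 19.6%), with 4130, 8828 and 11556 CPM. The metabolism list had 3 of 3, with a median of 18.6%; among them miR-378a-3p, from an intron of a mitochondrial coactivator gene, had 18.6% and miR-103-3p, tied to insulin sensitivity, had 21.2%.

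**Figure D2:**
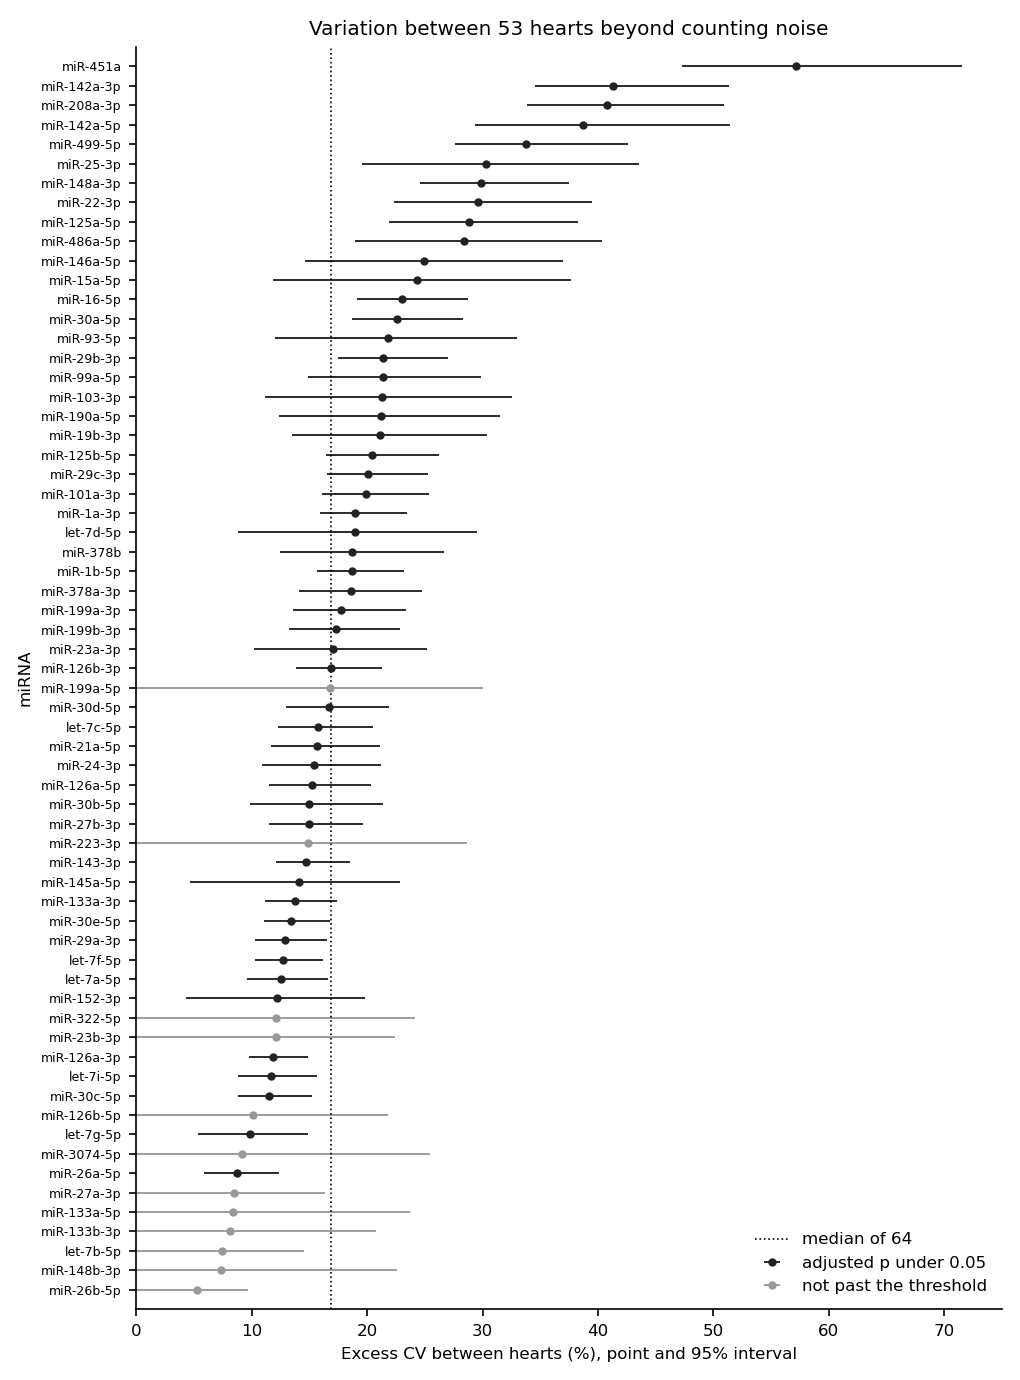
Excess CV (percent) of the 64 miRNAs between 53 hearts, as a point with its 95% interval, sorted from highest to lowest; black marks those with an adjusted p under 0.05, grey the others, and the dotted line the median of 16.8%. MiR-451a stands at 57.2%, miR-142a-3p and miR-208a-3p at 41.3% and 40.8%, and the intervals of the grey miRNAs reach down to 0% at the lower end of the list.

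The most variable miRNAs recurred in both runs, although the whole order was only loosely shared. Over the 64 miRNAs the excess CV had a rho of 0.385 between the runs, as a description, and the 8 highest of each run shared 5. The median was 15.2% in run S22-48 and 14.2% in run S60-85. In the 32 reference libraries, whose profiles differ among themselves, the median was 30.3%, and 3 of the 8 highest were shared with the 53 hearts. The shared ones were miR-208a-3p (129% in the reference), miR-142a-3p (120%) and miR-142a-5p (76.1%). MiR-451a, at 62.3%, and miR-499-5p, at 42.7%, ranked 11 and 18 there.

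**Figure D3:**
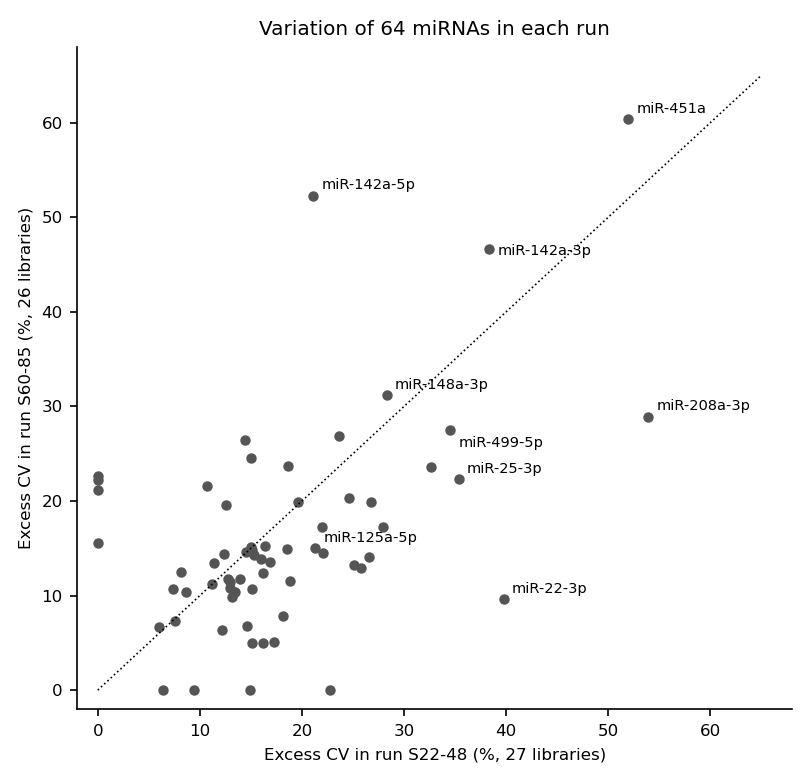
Excess CV (percent) of 64 miRNAs within run S22-48 (horizontal axis, 27 libraries) and within run S60-85 (vertical axis, 26 libraries), with equality as a dotted line and the 9 highest labelled. MiR-451a (51.97% and 60.4%) and miR-142a-3p (38.4% and 46.6%) are high in both, whereas miR-22-3p (39.7% and 9.64%) and miR-208a-3p (53.9% and 28.9%) are higher in the first.

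To learn which miRNAs varied together, Pearson's r of log2 CPM was computed for all 2016 pairs, with two-sided permutation tests and Benjamini-Hochberg adjustment over all pairs. A positive r passed the threshold for 85 pairs (4.22%) and a negative r for 80 (3.97%). With run and position within the run taken out, 124 pairs passed, and 102 of the 165 were among them with the same sign. A p of 1e-05 is the smallest the permutations can give, and its adjusted value here was 0.00084.

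MiR-142a and miR-451a, miRNAs of the blood lineages, rose and fell together between hearts. The r of miR-142a-3p with miR-451a was 0.763 (permutation p = 1e-05) and rho was 0.748 (permutation p = 1e-05), with r of 0.677 and 0.824 within runs S22-48 and S60-85. Without the 2 hearts farthest from the median of miR-142a-3p it was 0.713. Library 79 was the highest or next to highest for both, and library 65 the lowest for both. The arms miR-142a-3p and miR-142a-5p had an r of 0.760, and miR-451a with miR-142a-5p had 0.566 (0.519 and 0.661 within the runs). By contrast, miR-451a with miR-486a-5p had an r of 0.275 (adjusted p = 0.213, permutation test), and miR-142a-3p with miR-223-3p had -0.081 (adjusted p = 0.782). MiR-486a-5p and miR-223-3p had mean counts of only 12.9 and 10.6, and the part of counting noise in these values was not tested.

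The myosin intron miRNAs also moved together. The r of miR-208a-3p with miR-499-5p was 0.641 (permutation p = 1e-05) and rho was 0.709 (permutation p = 1e-05), with 0.725 and 0.454 within the runs and 0.672 without the 2 farthest hearts. MiR-208a-3p also followed miR-30b-5p, with an r of 0.596 (0.596 and 0.575). MiR-208a-3p ran opposite to miR-125a-5p, a broadly expressed miRNA of the lin-4 family, with an r of -0.606 (-0.605 and -0.651 within the runs). MiR-499-5p had -0.635 with miR-125a-5p (-0.688 and -0.191), so this relation was weak in run S60-85. With run and position taken out it was -0.461 (adjusted p = 0.019, permutation test). For miR-1a-3p with miR-133a-3p, which are transcribed from shared loci, the r was -0.059 (adjusted p = 0.843, permutation test), and with library totals it was -0.387 (adjusted p = 0.0286), so this call depends on the scaling.

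**Figure D4:**
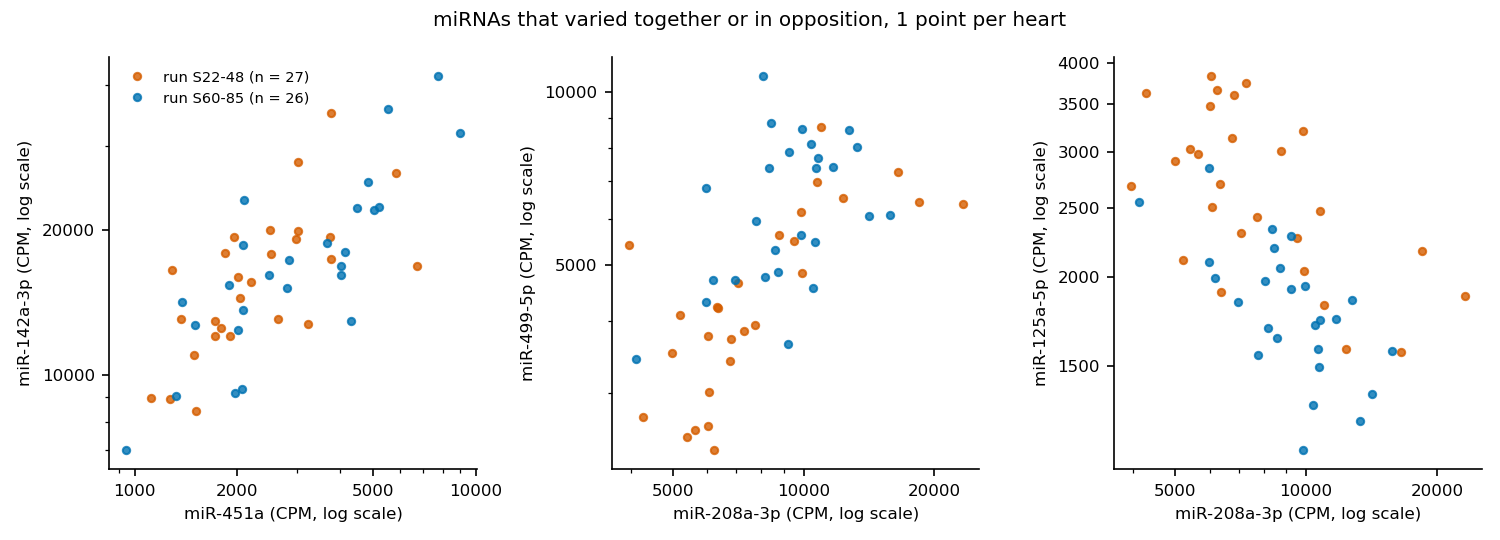
Levels in CPM on log axes, 1 point per heart coloured by run, for miR-451a against miR-142a-3p (left), miR-208a-3p against miR-499-5p (middle) and miR-208a-3p against miR-125a-5p (right). The first pair rises together in both runs (r of 0.763), as does the second (0.641), and the third falls (-0.606).

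The other pairs with a high r differed in how well they held within the runs. MiR-24-3p and miR-23a-3p, members of 1 cluster, had an r of 0.706 (0.659 and 0.755). MiR-101a-3p had 0.606 with miR-30e-5p (0.584 and 0.478) and 0.596 with miR-126b-3p (0.568 and 0.524). MiR-125a-5p and miR-103-3p had 0.578 (0.287 and 0.731). MiR-199b-3p, of fibroblasts, and miR-125a-5p had 0.572, but 0.549 and -0.097 within the runs, so this relation did not hold in run S60-85. MiR-1a-3p and miR-126a-3p had 0.604 (0.705 and 0.302), but -0.141 when library totals replaced TMM, so its direction depends on the scaling. Among the negative pairs, miR-29b-3p had -0.630 with let-7f-5p (-0.581 and -0.467) and -0.610 with let-7i-5p (-0.592 and -0.754). With library totals these were -0.310 (adjusted p = 0.0944, permutation test) and -0.329 (adjusted p = 0.0712), which did not pass. MiR-126b-3p had -0.591 with miR-378a-3p (-0.543 and -0.546).

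Whether miRNAs of 1 transcript or 1 family passed depended on the pair and on the scaling. Among passing pairs, miR-29a-3p with miR-29c-3p had an r of 0.512, with 0.545 and 0.184 within the runs. This relation was weak in run S60-85. Also passing were let-7a-5p with let-7f-5p (0.477), miR-30a-5p with miR-30d-5p (0.459) and the arms of miR-126a (0.452). Within the runs these had 0.450 and 0.432, 0.552 and 0.477, and 0.405 and 0.429. For miR-30a-5p with miR-30d-5p, rho was 0.343 (adjusted p = 0.109, permutation test) and r was 0.288 without the 2 hearts farthest from the median of miR-30a-5p. The pairs miR-26a-5p with miR-26b-5p (0.264), miR-27b-3p with miR-23b-3p (0.252), miR-27a-3p with miR-23a-3p (0.138) and miR-143-3p with miR-145a-5p (0.109) did not pass under TMM. With library totals the first 3 of these passed, at 0.577, 0.474 and 0.410 (adjusted p = 0.00126, 0.00549 and 0.0178, permutation test), and miR-143-3p with miR-145a-5p did not, at 0.351 (adjusted p = 0.0509). For miR-27b-3p with miR-23b-3p the value was 0.028 without the 2 hearts farthest from the median of miR-27b-3p, so what relation there was rested on them. Some of the highest values were between rows that can share reads. MiR-199a-3p and miR-199b-3p have the same mature sequence and an r of 0.993. The opposite-strand rows miR-1b-5p with miR-1a-3p and miR-126b-3p with miR-126a-5p had 0.832 and 0.810, and miR-3074-5p with miR-24-3p had 0.523.

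The balance of the 2 arms of a precursor, which does not depend on scaling, was tested in 5 precursors by a chi-square test of the 3p share, and 1 (20%) varied beyond counting noise. That was miR-126a, whose 3p arm held 85.6%, 90.8% and 94.3% of the counts of both arms at its lowest, median and highest (adjusted p = 7.47e-08, chi-square test with Benjamini-Hochberg adjustment). The spread beyond counting was 1.13 percentage points (SD, n = 53), and the pooled share was 90.7% and 90.6% in the runs. Its extreme hearts, libraries 48 and 36, were also those of miR-126b, in the opposite order, and reads divided otherwise between these opposite-strand rows would change the share and its test. The pooled 3p share was 95.4% for miR-126b (adjusted p = 0.106), 97.6% for miR-133a (0.497), 94.2% for miR-142a (0.495) and 90.4% for miR-199a (0.215).

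As an order check, run S60-85 was compared with run S22-48 by edgeR's quasi-likelihood test. Of 64 miRNAs, 7 (10.9%) were higher and 10 (15.6%) lower in run S60-85. The lower ones include both miR-199a-3p and miR-199b-3p, which have the same mature sequence and can share reads. The median log2 difference of the 64 was 0.03. With library totals the split was 2 higher and 15 lower, with a median of -0.07. The runs also differ in depth, and run and depth cannot be fully told apart.

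The ranges of the runs overlapped, but the run took up part of the spread of some miRNAs. With run as a covariate, the excess CV was 18.5% for miR-125a-5p, against 28.8% without it. It was 14.9% against 20.5% for miR-125b-5p and 7.54% against 18.9% for let-7d-5p. The median over all 64 was 15.1% against 16.8%. MiR-125a-5p had 1569, 2683 and 3839 CPM in run S22-48 and 1140, 1794 and 2843 in run S60-85, and the groups overlapped. Its log2 difference was -0.58 (SE 0.10; edgeR adjusted p = 1.5e-05), the largest of the 17. MiR-125b-5p, which shares its seed, had 7029, 10060.4 and 13006 CPM against 5574, 7288 and 10372, a log2 difference of -0.40 (SE 0.07; edgeR adjusted p = 1.5e-05). Let-7d-5p differed by -0.44 (SE 0.10; edgeR adjusted p = 0.00111) and miR-103-3p by -0.37 (SE 0.12; edgeR adjusted p = 0.0135). MiR-499-5p was higher in run S60-85, with 3437, 6086 and 10662 CPM against 2381, 4212 and 8668, a log2 difference of 0.48 (SE 0.13; edgeR adjusted p = 0.00255). The lists can be read against 10.9% higher and 15.6% lower among all 64. Higher were 2 of 5 cardiomyocyte miRNAs and 3 of 9 of the stress and fibrosis list. Lower were 1 of 2 smooth muscle, 1 of 2 fibroblast and 2 of 3 metabolism miRNAs. No endothelial, leukocyte or erythroid miRNA passed. With library totals the 2 cardiomyocyte miRNAs, miR-499-5p and miR-1a-3p, still passed. The 3 of the stress and fibrosis list, miR-21a-5p, miR-29b-3p and miR-29c-3p, did not (edgeR adjusted p = 0.0697, 0.17 and 0.0933). MiR-27b-3p did not pass (log2 difference of 0.14, edgeR adjusted p = 0.13).

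**Figure D5:**
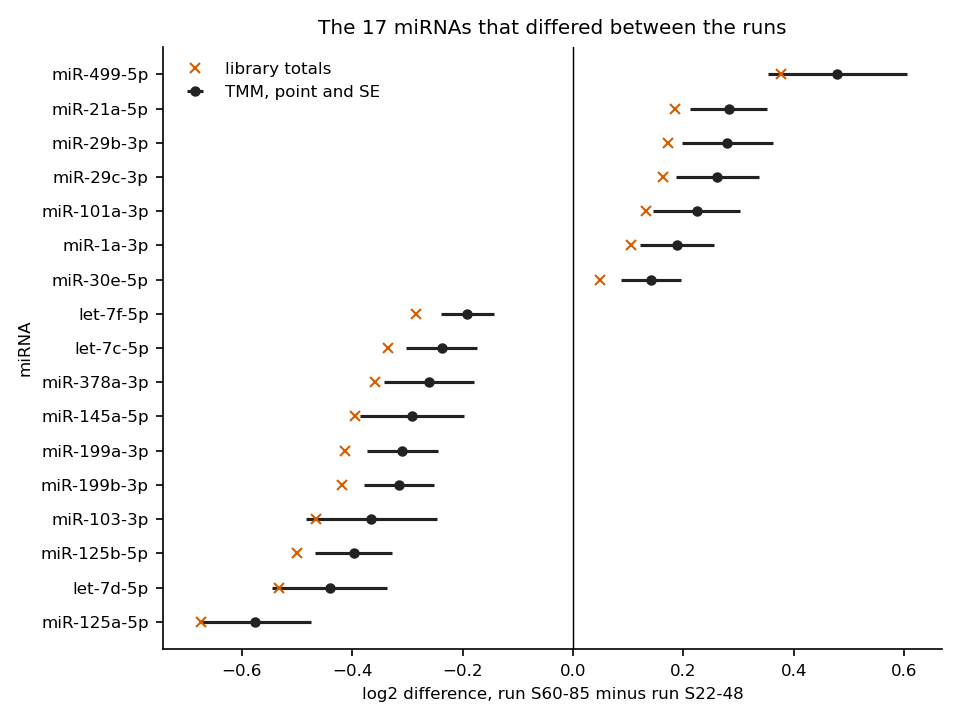
Log2 difference between run S60-85 and run S22-48 for the 17 miRNAs past the threshold, as a point with its SE under TMM and as a cross with library totals. Points right of 0 (7) were higher in run S60-85 and those left of it (10) lower, and with library totals every cross lies left of its point.

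Within the runs, no trend with the library number passed the threshold, which does not show that there was none. The edgeR quasi-likelihood test of the slope passed for 0 of 64 (0%), with 8 at an unadjusted p under 0.05, and DESeq2's Wald test also passed for 0. The lowest adjusted p was 0.269, for miR-208a-3p (0.24 log2 per 10 libraries, SE 0.09) and for miR-1b-5p (0.11, SE 0.04). With the log2 library total, 3 of 64 miRNAs (4.69%) had a correlation that passed a permutation test. Of these, miR-199a-3p and miR-199b-3p have the same mature sequence and can share reads, so they are not separate results. MiR-199a-3p had an r of -0.546 and rho of -0.496 (adjusted p = 0.0016 for r, permutation test), miR-199b-3p -0.535 and -0.500, and miR-125a-5p -0.422 and -0.455. Within runs S22-48 and S60-85 the r was -0.488 and -0.064, -0.459 and -0.053, and -0.206 and -0.027, so these relations did not hold within run S60-85. This check was added after the data were seen.

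Library 46 stood furthest from the others. It held the highest level of 9 miRNAs and the lowest of 5 among the 64, with miR-1b-5p (33.6% of its counts), miR-208a-3p and miR-22-3p among the highest and miR-27b-3p among the lowest. As shares of the library's counts, its summed smooth muscle and fibroblast lists were the lowest of the 53. In TMM-scaled CPM its miR-143-3p was 33481, above the 27252 of library 32, and its miR-145a-5p was 1733 against a median of 1750. Its miR-199a-3p was 5583 CPM, above only the 5133 of library 70, and its miR-199a-5p was 861 against a median of 863. Leaving out any 1 library kept the number of miRNAs beyond counting noise between 51 and 54 and the median excess CV between 15.9% and 17.5%.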

How the data were processed

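The deposited table holds raw read counts for each mature miRNA, as whole numbers without scaling. Per the labels and methods, the authors extracted RNA with a miRNeasy kit, made QIAseq miRNA libraries, read single ends of 50 bases on a HiSeq and counted with HTSeq 0.13.5 after HISAT2 2.0.6; the build is mm10. The miRNA annotation, trimming, strand setting and use of molecular identifiers are not given in the sources used here. All columns matched a sample.

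TMM factors for the 53 libraries came from edgeR 4.0.16 under R 4.3.3. The excess CV is the square root of the negative binomial dispersion at which Pearson's statistic equals its 52 degrees of freedom, with a 95% interval from the chi-square distribution. CPM used a prior count of 2, permutation tests 100000 resamples, and every test a threshold of 0.05 after Benjamini-Hochberg adjustment. DESeq2 1.42.0, Python 3.11.15, numpy 2.4.6, scipy 1.17.1, pandas 2.3.3 and matplotlib 3.10.9 were also used. The tests were tested on simulated data.

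Libraries, lists and tests were chosen with earlier results of these data known. Named miRNAs are the 10 with the most counts, the 8 with the highest and 8 with the lowest excess CV, members of the cell type, stress and fibrosis, and metabolism lists, the 5 largest run differences, set pairs, the 10 pairs with the highest r that are neither arms of 1 precursor nor of 1 seed family, and precursors in the arm test. Other miRNAs were named after their values were seen, among them the 5 most negative pairs. Where a seed had no entry, family was read from the number in the name.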

Additional observations from a re-analysis of the deposited data

How the results depend on the processing

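The number of miRNAs beyond counting noise, the number that differed between runs in either direction, the order trend and the arm balance kept within 1.5 times their reported counts in every alternative run. By direction, 2 were higher and 15 lower in run S60-85 with library totals, against 7 and 10. The limit of 5000 counts per library left out no library, so its values equal those reported; a limit of 10000 counts, run as the only covariate, the values of the excess CV within each run and the relation with depth were added after seeing the data. The median excess CV was 20.04% with library totals and 14.2% within run S60-85. The correlated pairs numbered 376 with library totals, of which 294 were positive, and 10 within run S22-48 and 21 within run S60-85, where fewer hearts were used. In 3 named relations the sign changed: miR-1a-3p with miR-126a-3p (-0.141 with library totals), miR-199b-3p with miR-125a-5p (-0.097 within run S60-85) and miR-1a-3p with miR-133a-3p (0.017 within run S60-85). The cause was not tested. Of 17 run differences, 12 passed with library totals, 14 in libraries of 10000 counts and 11 with no filter, all in their reported direction. No paired analysis was possible because all samples form 1 group. Depth limits the rows near 10 counts, whose upper bounds on the excess CV exceed 20%.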
